A study of Mus musculus with 12 samples.

Results

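NF-kB is a family of transcription factors that carries signals from cytokine receptors and Toll-like receptors to the genes of inflammation. The members followed here are 10 named genes of the pathway and its feedback, listed by symbol with earlier results of these data known. They are the Rel family subunits Rel, Rela, Relb, Nfkb1 and Nfkb2, and the inhibitors Nfkbia and Nfkbie. The others are the nuclear IkB proteins Nfkbiz and Bcl3, and the ubiquitin-editing enzyme Tnfaip3. For 9 of the 10 the array had a probe set annotated with that symbol alone, 14 of the 22690 probe sets in all (12393 genes). Nfkb1 was not analysed here. The 12 hearts, from mice of the inbred strain C57Bl/6, were each measured on their own Affymetrix array and formed 4 groups of 3. Wake MI hearts came from mice with myocardial infarction (MI), in which a suture closes the left anterior descending artery, operated between ZT13 and ZT15, where ZT counts hours from lights on, and wake sham hearts from mice with sham surgery in the same hours. Sleep MI and sleep sham hearts came from the same surgeries between ZT1 and ZT3. The interval to collection was 8 hours throughout, which put wake hearts at ZT23 and sleep hearts at ZT11, so time of surgery and time of collection cannot be told apart. The labels call the MI tissue infarcted myocardium and do not say which region of the sham hearts was taken. All animals were labelled as separate biological replicates, with no age, sex or genetic change given.

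In resting cells the NF-kB dimers are held in the cytoplasm by IkB proteins. Signals from receptors of TNF, interleukin-1 and microbial or damage products activate the IKK kinases, which mark IkB for destruction and free the dimers to enter the nucleus. Several of the genes then switched on, among them Nfkbia and Tnfaip3, code for inhibitors of the same pathway and so close a feedback loop. In the infarcted heart the pathway is known to act in muscle cells, endothelium, resident macrophages and infiltrating leukocytes.

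Because several members are known targets of NF-kB, the 250 bases before the annotated start of each were searched for NF-kB motifs. These are shown for Nfkbia, the classical feedback inhibitor, for Rel, which changed at both times of day, and for Tnfaip3, a feedback gene that stayed near the bottom of the signal range. The letters are RefSeq sequence of assembly GRCm38.p6, 5′ to 3′ on the strand of the gene, which is the minus strand for all 3. Capitals mark matches to the NF-kB consensus or to GGANTTTCC, on either strand.
Nfkbia: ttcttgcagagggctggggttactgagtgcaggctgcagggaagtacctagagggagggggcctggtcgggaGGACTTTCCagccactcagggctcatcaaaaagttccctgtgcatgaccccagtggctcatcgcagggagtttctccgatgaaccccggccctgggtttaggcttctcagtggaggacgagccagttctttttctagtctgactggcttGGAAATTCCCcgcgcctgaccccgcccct
Rel: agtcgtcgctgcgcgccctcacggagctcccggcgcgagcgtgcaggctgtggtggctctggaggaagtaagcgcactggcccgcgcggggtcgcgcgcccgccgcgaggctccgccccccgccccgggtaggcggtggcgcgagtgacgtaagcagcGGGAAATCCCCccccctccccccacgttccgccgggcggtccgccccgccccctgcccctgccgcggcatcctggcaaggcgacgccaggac
Tnfaip3: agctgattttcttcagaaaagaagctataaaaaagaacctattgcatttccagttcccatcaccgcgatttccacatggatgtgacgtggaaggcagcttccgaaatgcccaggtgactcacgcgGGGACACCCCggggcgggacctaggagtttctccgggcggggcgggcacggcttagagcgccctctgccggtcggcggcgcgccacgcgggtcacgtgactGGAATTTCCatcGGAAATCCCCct
The Nfkbia window (chr12:55492648-55492897) held a consensus match at positions -29 to -20, counted from the base before the start as -1. It also held GGANTTTCC at -178 to -170 and, inside the consensus match and on the same strand as it, at -29 to -21. The Rel window (chr11:23770970-23771219) held 3 consensus matches that overlap each other between -92 and -82. The Tnfaip3 window (chr10:19015411-19015660) held the consensus at -125 to -116 on both strands and at -12 to -3, and GGANTTTCC at -24 to -16. Promoters were listed for 7 of the 10 members, as 10 windows. Of these, 7 windows and 5 genes (Nfkbia, Rel, Tnfaip3, Nfkb2 and Nfkbie) had a match to either motif, against 7.79% of all 32851 windows and 8.88% of all 27025 genes. The consensus alone was in 7.25% of windows and GGANTTTCC in 1.07%. The other Tnfaip3 window (chr10:19011964-19012213) and the windows of Rela and Bcl3 had no match, which says only that these letters are not in those stretches.

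Each member is given by its signal, the deposited MAS5 intensity on a linear scale. Signals of different genes come from different probes, so they are compared between hearts and not between genes. Changes are log2 differences of signal + 16, with the standard error (SE) of limma, and adjusted p is Benjamini-Hochberg over the 8109 genes whose mean signal reached 17.3. Adding 16 makes changes of weakly detected genes look smaller. Nfkbie and Tnfaip3 lay below that level, so 7 members were tested. Fewer cells of a type and less RNA per cell cannot be told apart in whole tissue.

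Over both times of day, 6 of the 7 tested members rose in MI hearts and 0 fell, where 8.57% of all tested genes rose (22.2% were called in either direction). The 6 were Rel, Rela, Relb, Nfkbia, Nfkbiz and Bcl3. Rel had a mean sham signal just under that level filter and so reached the test only through its MI hearts, and 5 of the other 6 rose. The median change of the 7 was log2 0.93, against -0.06 for all 8109 genes, which describes the genes that reached the test and not all members. In wake hearts 5 rose (7.81% of all genes rose, 18.4% were called) and in sleep hearts 1 rose (1.69% of all genes rose, 2.68% were called). The 5 in wake hearts were Rel, Rela, Nfkbia, Nfkbiz and Bcl3, and the 1 in sleep hearts was Rel.

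Median signals of the arrays lay between 32.7 and 34.7, and no pair of arrays held identical values. Over genes, which do not count as replicates, 12 pairs of arrays within groups correlated at 0.981 to 0.990 and 54 pairs between groups at 0.971 to 0.990. Beta-actin control probes give a 3′ to 5′ ratio that grows with RNA breakdown. Its mean ± SD over 3 arrays was 2.60 ± 0.62 with MI and 1.79 ± 0.02 with sham surgery in wake hearts, and 2.40 ± 0.45 with MI and 2.18 ± 0.28 with sham surgery in sleep hearts. All wake MI arrays had a higher ratio than all wake sham arrays, and the highest, 3.31, was in wake MI replicate 3. All wake sham arrays (1.77 to 1.81) also had a lower ratio than all sleep sham arrays (1.94 to 2.49). Defining muscle markers were high throughout, with Myh6, the main heavy chain of mouse heart myosin, at mean signals of 11305 with MI and 9852 with sham surgery in wake hearts, and 11631 with MI and 10868 with sham surgery in sleep hearts. Summed signals of 4 atrial muscle markers reached 14686 in wake sham replicate 3, while the other 11 arrays lay between 998 and 4720.

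**Figure D1:**
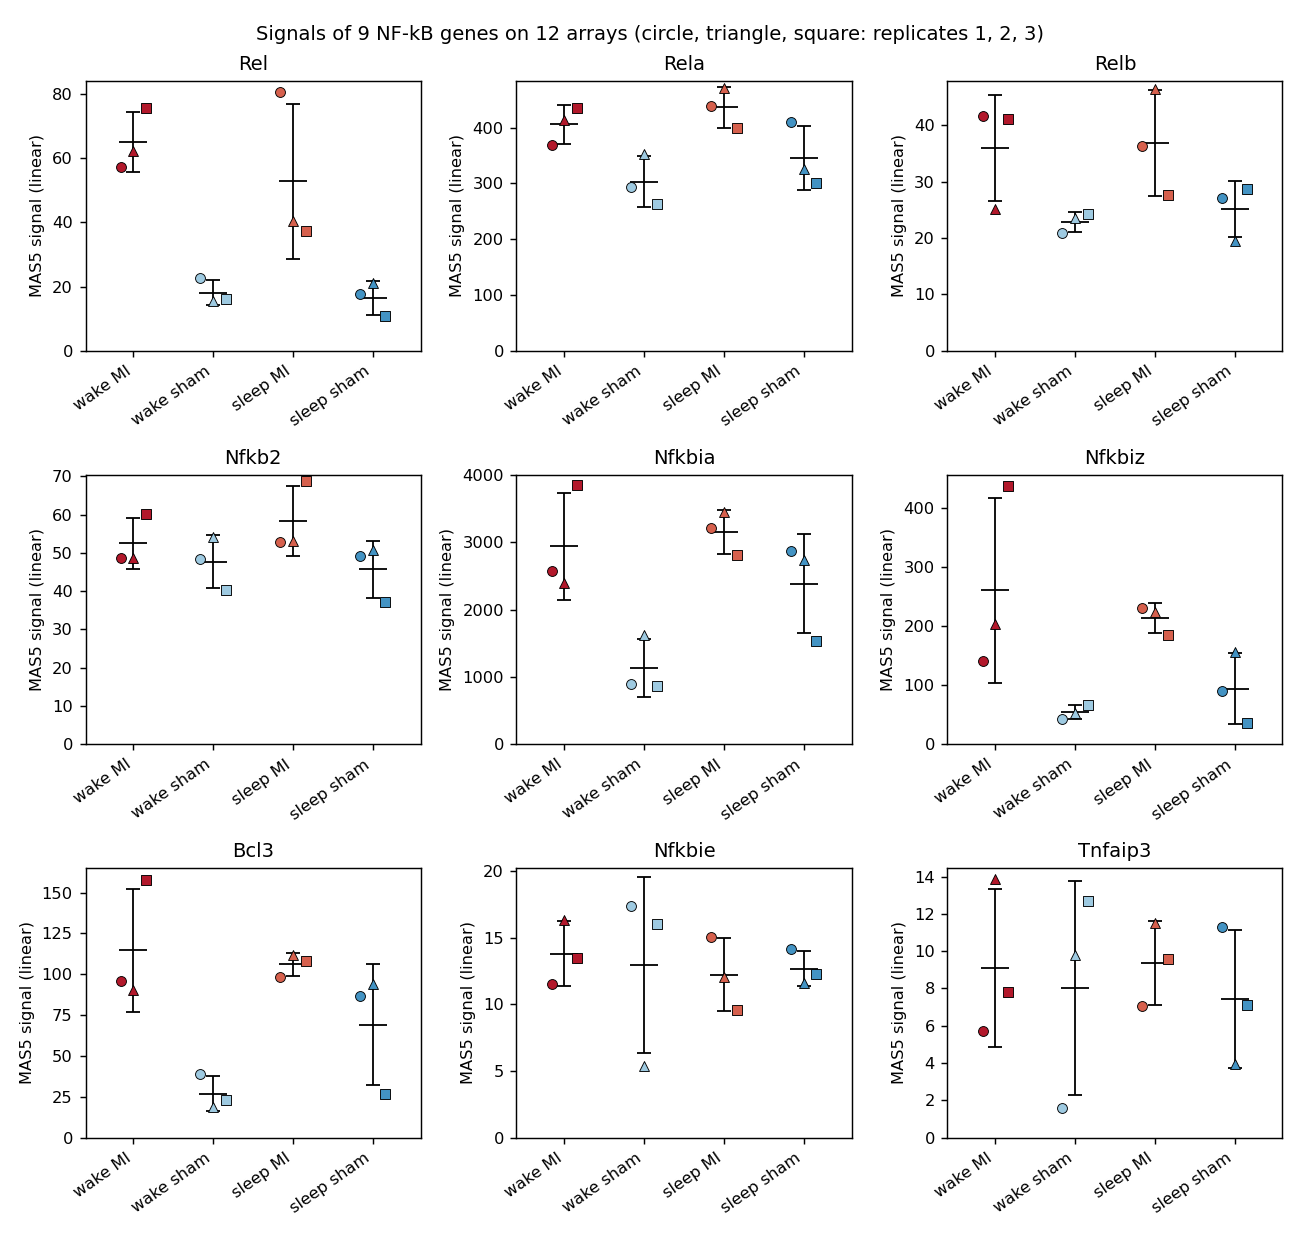
MAS5 signal (linear, vertical axis from 0) of the 9 NF-kB genes with a probe set, in wake MI, wake sham, sleep MI and sleep sham hearts. Circles, triangles and squares are replicates 1, 2 and 3, and bars are the mean and SD (n = 3). For Rel all MI arrays (37.5 to 80.6) lie above all sham arrays (10.8 to 22.7), while for Nfkbia the wake sham arrays (869.7 to 1629.6) lie apart from the 2 MI groups and the sleep sham group comes between.

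Among the Rel family subunits, Rel changed most. Rel codes for c-Rel, the subunit best known from leukocytes. Its signals were 57.4, 62.3 and 75.7 in wake MI hearts, against 22.7, 15.6 and 16.1 in wake sham hearts. In sleep hearts they were 80.6, 40.4 and 37.5 with MI and 17.8, 21.0 and 10.8 with sham surgery. All 6 MI arrays lay above all 6 sham arrays, and the widest spread was that of the sleep MI group, where replicate 1 was the highest array of all 12. By limma, Rel was 2.21-fold higher in MI hearts over both times (log2 1.15, SE 0.15, adjusted p = 0.000196). The rise was log2 1.25 (SE 0.21, adjusted p = 0.00176) in wake hearts and log2 1.04 (SE 0.21, adjusted p = 0.0190) in sleep hearts. The size depends on the constant added, since the change over both times was log2 1.69 with 1 added and 0.59 with 64 added. The sleep call was lost without sleep MI replicate 1 (log2 0.77, adjusted p = 0.0742), without sleep sham replicate 1 (1.07, 0.0556) or replicate 3 (0.91, 0.0885), and when sleep hearts were fitted alone (1.04, 0.0520). Sham means of Rel, 18.1 in wake and 16.5 in sleep hearts, lay about at the level that genes needed for the test.

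Rela codes for p65, the subunit of the most common NF-kB dimer and a strong activator of transcription. Its signals were 368, 415 and 436 in wake MI hearts, against 294, 353 and 263 in wake sham hearts. In sleep hearts they were 439, 472 and 399 with MI and 411, 326 and 302 with sham surgery. The wake groups did not overlap, and the sleep groups overlapped through sleep sham replicate 1. The change was smaller than that of Rel, at log2 0.37 (SE 0.10, adjusted p = 0.0142 by limma) over both times. In wake hearts it was 0.41 (SE 0.13, adjusted p = 0.0483) and in sleep hearts 0.33 (SE 0.13, adjusted p = 0.229). The wake call was near the threshold and held in 11 of 25 alternatives.

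Relb codes for the subunit that pairs with the Nfkb2 product in the slower, non-canonical branch. Its signals were 41.6, 25.2 and 41.2 in wake MI hearts, against 20.8, 23.5 and 24.2 in wake sham hearts, and 36.4, 46.5 and 27.7 in sleep MI hearts, against 27.1, 19.4 and 28.7 in sleep sham hearts. Wake arrays separated by a narrow margin and sleep arrays overlapped. The change over both times was log2 0.38 (SE 0.12, adjusted p = 0.0394 by limma), 0.56 with 1 added and 0.19 with 64 added. It was called in 11 of 23 alternatives and lost its call with the replicate number as a block (adjusted p = 0.0560), without the level filter (0.0638), and without any 1 of 9 arrays. Those are wake MI replicates 1 and 3, each wake sham replicate, sleep MI replicates 1 and 2, and sleep sham replicates 1 and 2, which gave adjusted p between 0.0572 and 0.0929.

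Nfkb2 codes for the p100 precursor, which is both an inhibitor and the source of the p52 subunit. Its signals were 48.7, 48.7 and 60.2 in wake MI hearts and 48.5, 54.3 and 40.4 in wake sham hearts. Sleep hearts had 52.8, 53.2 and 68.9 with MI and 49.2, 50.8 and 37.1 with sham surgery. Wake groups overlapped, and sleep groups did not. Nfkb2 was the tested member that did not pass, with log2 0.19 over both times (95% interval -0.03 to 0.41, adjusted p = 0.201 by limma). Its other probe set had signals of 34.8, 33.7 and 34.6 with MI and 26.4, 34.0 and 43.5 with sham surgery in wake hearts. In sleep hearts they were 52.0, 25.6 and 58.0 with MI and 41.8, 43.5 and 43.5 with sham surgery, so the groups overlapped at both times.

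Nfkbia codes for IkB alpha, the inhibitor that NF-kB itself induces. Its signals were 2581, 2389.8 and 3852 in wake MI hearts, against 888, 1629.6 and 869.7 in wake sham hearts. In sleep hearts they were 3207, 3459.6 and 2811 with MI and 2868, 2745 and 1538 with sham surgery. The wake groups stood clearly apart, while in sleep hearts 1 sham array exceeded the lowest MI array. In order of the mean, the groups ran sleep MI (3159 ± 327), wake MI (2941 ± 795), sleep sham (2384 ± 735) and wake sham (1129 ± 433; SD, n = 3 each), and each neighbouring pair overlapped. By limma Nfkbia was 2.64-fold higher in wake MI than in wake sham hearts (log2 1.40, SE 0.26, adjusted p = 0.00330). In sleep hearts the change was log2 0.45 (SE 0.26, adjusted p = 0.410), and over both times it was 0.93 (SE 0.19, adjusted p = 0.00359).

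Nfkbiz and Bcl3 code for nuclear IkB proteins, which bind NF-kB dimers on DNA and can raise as well as lower transcription of particular target genes. IkB zeta, the Nfkbiz product, is needed in macrophages for induction of Il6. The Nfkbiz signals were 141, 203 and 436 in wake MI hearts, against 42.6, 52.3 and 66.0 in wake sham hearts. In sleep hearts they were 231, 224 and 185 with MI and 89.7, 155 and 35.9 with sham surgery. MI arrays lay above sham arrays at each time, and wake MI replicate 3 was the highest of all 12. Nfkbiz was 2.90-fold higher with MI over both times (log2 1.54, SE 0.27, adjusted p = 0.00162 by limma). The wake change was 3.61-fold (log2 1.85, SE 0.38, adjusted p = 0.00562), and the sleep change of log2 1.22 (SE 0.38, adjusted p = 0.111) did not pass. With single arrays left out the sleep change ran 0.76 to 1.62, and it passed in 1 of 25 alternatives, without sleep sham replicate 2 (adjusted p = 0.0347).

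The Bcl3 signals were 95.8, 90.2 and 158 in wake MI hearts, against 38.8, 18.5 and 23.1 in wake sham hearts. In sleep hearts they were 98.4, 112 and 108 with MI and 86.8, 94.0 and 26.8 with sham surgery. The groups did not overlap at either time, but in sleep hearts 2 of the 3 sham arrays lay just under the MI arrays. Bcl3 was 2.17-fold higher over both times (log2 1.12, SE 0.21, adjusted p = 0.00262 by limma). In wake hearts it was 3.03-fold higher (log2 1.60, SE 0.30, adjusted p = 0.00344), and in sleep hearts the change was log2 0.64 (SE 0.30, adjusted p = 0.302). Over both times it was log2 1.44 with 1 added and 0.68 with 64 added.

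Counting groups that do not overlap, in place of calls, MI arrays lay above sham arrays at both times for 3 members, Rel, Nfkbiz and Bcl3 (4.27% of all tested genes). They did so for 6 members in wake hearts (13.7% of genes) and for 4 in sleep hearts, Nfkb2 being the fourth (8.21%).

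The remaining members stayed low. Nfkbie codes for IkB epsilon, an inhibitor that is induced more slowly than IkB alpha. Its signals were 11.5, 16.4 and 13.4 with MI and 17.4, 5.35 and 16.02 with sham surgery in wake hearts, and 15.04, 12.1 and 9.55 with MI and 14.2, 11.6 and 12.2 with sham surgery in sleep hearts. Tnfaip3 codes for A20, which edits ubiquitin chains on the signalling proteins above IKK. Its signals were 5.71, 13.9 and 7.79 with MI and 1.60, 9.78 and 12.7 with sham surgery in wake hearts, and 7.04, 11.5 and 9.58 with MI and 11.3, 3.94 and 7.09 with sham surgery in sleep hearts. All groups of both genes overlapped, at signals where a difference was not detectable. In a fit without the level filter the change over both times was log2 0.02 for Nfkbie (95% interval -0.23 to 0.27) and 0.10 for Tnfaip3 (95% interval -0.19 to 0.39).

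**Figure D2:**
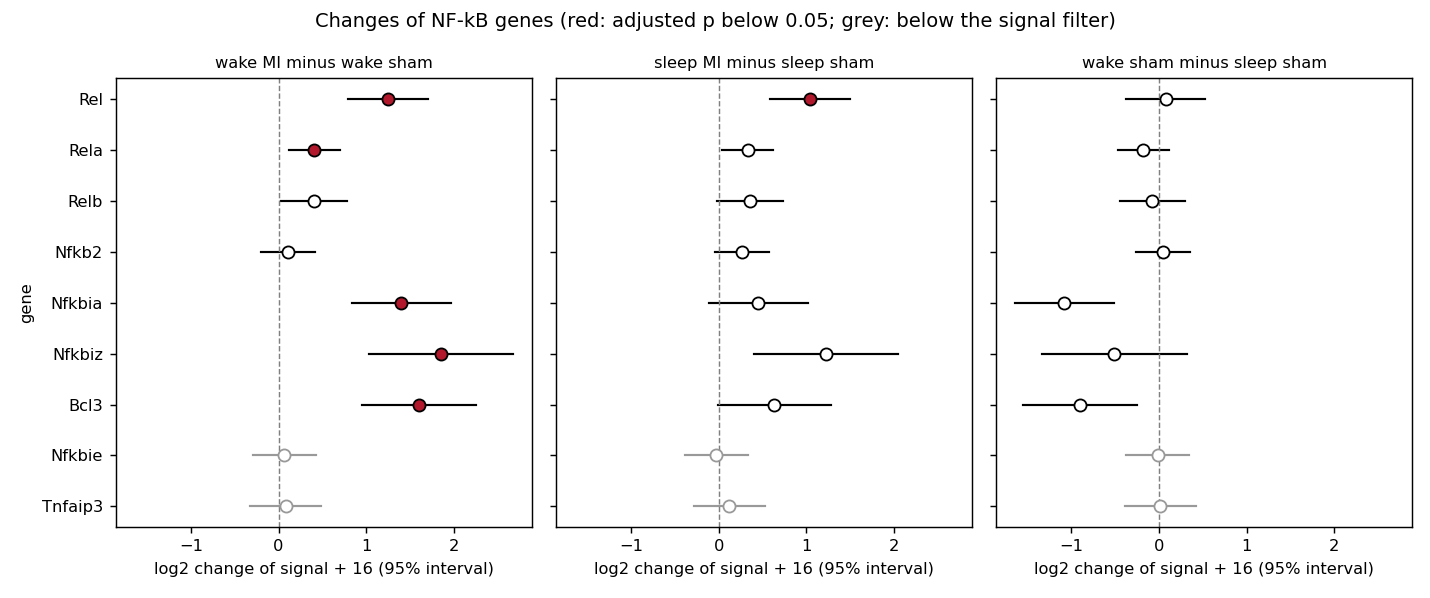
Change of the 9 NF-kB genes on the log2(signal + 16) scale (horizontal axis) in wake MI minus wake sham, sleep MI minus sleep sham and wake sham minus sleep sham hearts. Points are limma estimates with 95% intervals, filled red where adjusted p was below 0.05 and grey for the genes below the signal filter. Nfkbia reads 1.40, 0.45 and -1.08 in the 3 panels and Rel reads 1.25, 1.04 and 0.08.

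The comparisons of wake with sleep hearts asked whether these levels depended on the time of day. Wake MI against sleep MI hearts gave 0 called members by limma (0.074% of all genes were called), and 0 at an unadjusted p below 0.05 (6.62% of all genes). For Nfkbia the change between them was log2 -0.13 (95% interval -0.69 to 0.43), for Nfkbiz 0.13 (-0.70 to 0.95), for Bcl3 0.06 (-0.59 to 0.71) and for Rel 0.29 (-0.17 to 0.74). These intervals leave room for changes in either direction.

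Wake sham against sleep sham hearts also gave 0 called members by limma (1.52% of all genes were called), with 2 at an unadjusted p below 0.05 (13.4% of all genes). These 2 were Nfkbia, lower in wake sham hearts at log2 -1.08 (SE 0.26, adjusted p = 0.0603), and Bcl3, at -0.90 (SE 0.30, adjusted p = 0.184). Sleep sham replicate 3 stood low in its group for both genes, and without it the changes were -1.36 (adjusted p = 0.00836) and -1.34 (adjusted p = 0.00459), so both passed. Nfkbia also passed without wake sham replicate 2 (-1.37, adjusted p = 0.0110) and, at an unchanged -1.08, without wake MI replicate 3 (adjusted p = 0.0407). Without wake sham replicate 1 it read -0.94 (adjusted p = 0.298), without wake sham replicate 3 -0.92 (0.219), and without sleep sham replicates 1 and 2 in turn -0.92 (0.232) and -0.95 (0.221). Bcl3 read -0.71 (adjusted p = 0.436) and -0.66 (0.516) without those 2 sleep sham arrays in turn. With the beta-actin ratio in the model, Nfkbia read -0.87 (adjusted p = 0.221 by limma) and Bcl3 -0.59 (adjusted p = 0.472). Sleep sham replicate 3 had the lowest beta-actin ratio of its group, 1.94. Nfkbia passed in 3 of 25 alternatives and Bcl3 in 1 of 25. Rel and Rela read 0.08 and -0.18 in this comparison, which uses the same wake sham arrays as the MI comparison of wake hearts.

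The difference of the MI effect, wake minus sleep, was called for 0 members and for 0% of all genes by limma, with 2 members at an unadjusted p below 0.05 (10.5% of all genes). It was log2 0.95 (SE 0.37, adjusted p = 0.402) for Nfkbia and 0.97 (SE 0.43, adjusted p = 0.454) for Bcl3, so a larger effect in wake hearts was not shown for any member. For Nfkbiz it was 0.63 (SE 0.54) and for Rel 0.21 (SE 0.30).

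Nfkbia and Nfkbiz had further probe sets. In a fit of every probe set, all 4 Nfkbia probe sets were higher in wake MI than in wake sham hearts, by log2 1.40, 1.38, 1.61 and 1.62, and the groups did not overlap in any of them. In wake sham against sleep sham hearts they read -1.08, -1.02, -1.20 and -1.31. The adjusted p-values by limma over all probe sets were 0.0641, 0.0344, 0.0445 and 0.0536, so the -1.02 and -1.20 passed and the others did not. The 4 share their mRNA and are not independent. The second Nfkbiz probe set had signals of 50.3, 39.1 and 42.7 in wake MI hearts, against 5.26, 5.31 and 16.2 in wake sham hearts, and 41.0, 54.5 and 37.9 in sleep MI hearts, against 26.1, 26.2 and 19.6 in sleep sham hearts. It changed by log2 1.29 in wake MI against wake sham hearts, and its wake sham arrays lay below all sleep sham arrays (-0.71, adjusted p = 0.0788). All its wake sham signals lay under 17.3, the mean level that genes needed for the test. In sleep hearts it changed by log2 0.59 (adjusted p = 0.106 by limma), and its difference of effects was 0.70 (SE 0.25, adjusted p = 0.355).

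**Figure D3:**
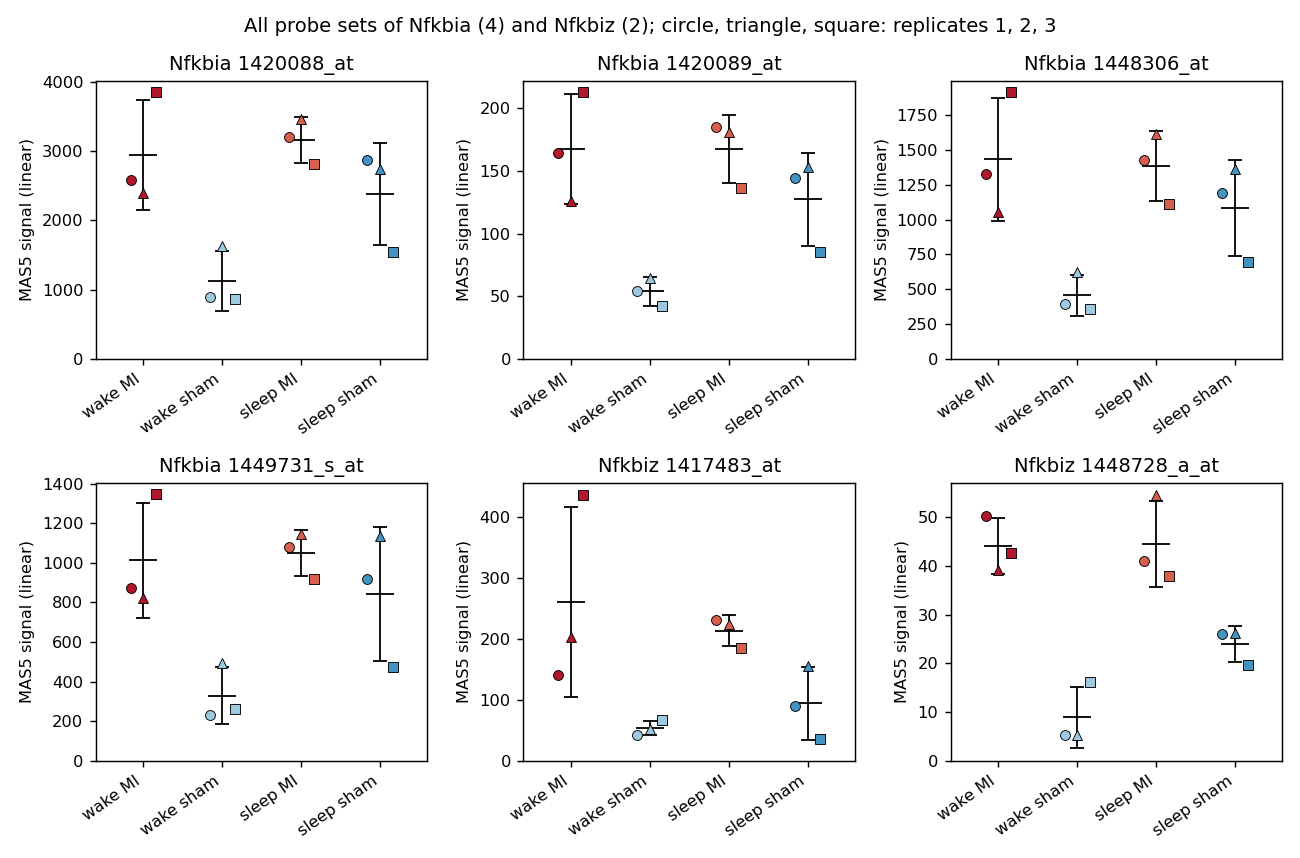
MAS5 signal (linear, vertical axis from 0) of the 4 Nfkbia and 2 Nfkbiz probe sets in wake MI, wake sham, sleep MI and sleep sham hearts, with replicates 1, 2 and 3 as circles, triangles and squares and the mean and SD as bars (n = 3). The wake sham group has the lowest mean in all 6 panels, and sleep sham replicate 3 is the lowest array of its group in each.

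Some measures of tissue make-up and RNA quality also differed between MI and sham hearts. Of 9 tested neutrophil markers (10 of 11 had a probe set), 8 rose with MI over both times and in wake hearts, and 2 rose in sleep hearts. Of all tested genes 8.57%, 7.81% and 1.69% rose in these comparisons. Their summed signal ran 1409 to 3403 with MI and 287 to 809.8 with sham surgery in wake hearts, and 1801 to 3345 with MI and 531 to 2145 with sham surgery in sleep hearts. None of the defining markers was at 0: S100a8, a calcium-binding protein of neutrophils, rose by log2 1.58 (SE 0.27), S100a9 by 1.68 (SE 0.33) and the G-CSF receptor gene Csf3r by 0.56 (SE 0.14) over both times. The lowest sleep sham sum, 531, was that of replicate 3, which was also lowest for Nfkbia, Nfkbiz, Bcl3 and Rel. Wake MI replicate 3 had the lowest sum of its group, 1409, and the highest Nfkbia, Nfkbiz, Bcl3 and Rel signals of its group. It also had the highest beta-actin ratio of its group, 3.31, and sleep sham replicate 3 had the lowest of its group, 1.94. Sleep MI replicate 3 had the highest ratio of its group, 2.92, and the lowest Nfkbia, Nfkbiz and Rel signals there. The part of neutrophils in these results was not tested.

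Monocyte markers rose in part. Of 4 tested (7 of 9 had a probe set), 1 rose over both times (Cd14, log2 0.997, SE 0.18), where 8.57% of all genes rose. Cd14 is also counted among the receptor genes below. Of the 4, 3 had an unadjusted p below 0.05 by limma (36.5% of all genes), with a median of log2 0.85. The defining Ccr2 read 0.25 (adjusted p = 0.225). The summed signal of the monocyte markers ran 437 to 576 with MI and 183 to 272 with sham surgery in wake hearts, which did not overlap, and 404 to 691 with MI and 177 to 449 with sham surgery in sleep hearts. Wake MI replicate 3, highest of its group for Nfkbia, Nfkbiz, Bcl3 and Rel, had the lowest sum there, 437. Sleep MI replicate 1, highest for Rel, had the lowest of its group, 404. Sleep sham replicate 3, low for those 4 genes, was also lowest in its group, at 177. Of 9 resident macrophage markers 0 passed over both times and 1 fell in wake hearts, with summed signals of 2855 to 3354 with MI and 2988 to 4491 with sham surgery in wake hearts, and 2969 to 3646 with MI and 3506 to 3726 with sham surgery in sleep hearts. Of 7 fibroblast markers 3 fell over both times (median log2 -0.32) and 3 fell in wake hearts (median -0.68), where their summed signal ran 5462 to 7068 with MI and 8066 to 11999 with sham surgery. Of 4 atrial muscle markers 0 passed over both times (median -1.03), but 3 fell in wake hearts (median -3.47), where their sum ran 998 to 1436 with MI and 1715 to 14686 with sham surgery. Of 8 endothelial markers 2 rose and 1 fell over both times, and of 8 cardiomyocyte and 5 smooth muscle markers 0 passed over both times or in wake hearts. Of all tested genes, 22.2% were called in either direction over both times and 18.4% in wake hearts. The part of these tissue differences in the members' changes was not tested. None of the 6 lymphocyte markers with a probe set reached the level filter.

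With that ratio added to the model as a covariate, 1 member kept its call over both times and 0 did in wake hearts. Rel kept it at log2 1.12 (adjusted p = 0.00772), and Nfkbiz (1.15, 0.0544), Bcl3 (0.76, 0.0836), Nfkbia (0.69, 0.0925), Rela (0.31, 0.143) and Relb (0.39, 0.168) lost it. In wake hearts the values were 1.21 for Rel (adjusted p = 0.0525), 1.01 for Nfkbia (0.127), 1.23 for Nfkbiz (0.190), 1.02 for Bcl3 (0.149) and 0.32 for Rela (0.369). Called genes of the whole array fell to 674 over both times and to 272 in wake hearts, against 1800 and 1495 without the covariate. Since the ratio separated the wake groups completely, its part and that of MI cannot be told apart there. The ratio also separated wake sham from sleep sham arrays completely, so its part and that of time of day cannot be told apart there.

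The rest of the pathway was described with gene lists drawn up with earlier results of these data known. Of 12 tested receptor genes, 6 rose and 0 fell with MI over both times (median log2 0.28), where 8.57% of all genes rose. Tnfrsf12a, the receptor of TWEAK, rose by log2 1.38 (SE 0.21), the Toll-like receptor partner Cd14 by 0.997 (SE 0.18) and the interleukin-1 receptor Il1r1 by 0.80 (SE 0.17). In wake hearts 5 rose (7.81% of all genes) and in sleep hearts 1 (1.69%), which was Tnfrsf12a (log2 1.88, SE 0.29, adjusted p = 0.00416 by limma). Osmr, the oncostatin M receptor gene, was counted in this list and rose by 1.40 (SE 0.25) in wake hearts. Its signals were 425 ± 21.6 in wake MI and 153 ± 38.2 in wake sham hearts (SD, n = 3 each). It was the gene of this list that differed between wake sham and sleep sham hearts (log2 -1.30, SE 0.25, adjusted p = 0.0214).

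Ligand genes were mostly low, with 3 of 9 above the filter. Of these 3, 2 rose over both times, where 8.57% of all tested genes rose. Il1b, the interleukin-1 beta gene, rose by log2 0.83 (SE 0.18), and the alarmin Il33 by 0.68 (SE 0.21). Tnf, the gene of tumour necrosis factor, lay below the filter, with mean signals of 5.22 with MI and 7.57 with sham surgery in wake hearts, and 9.97 with MI and 6.64 with sham surgery in sleep hearts.

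Between receptor and nucleus the changes were small. Of 17 adaptor and kinase genes, 3 rose and 2 fell over both times (median log2 0.05), a share not far from the 22.2% of all genes that were called. Myd88, the adaptor of Toll-like and interleukin-1 receptors, rose by log2 0.55 (SE 0.12), the kinase Map3k8 by 0.64 (SE 0.16) and Bcl10 by 0.28 (SE 0.07). Card10, a scaffold that works with Bcl10, fell by 0.39 (SE 0.11), and Tradd, the adaptor of the TNF receptor, by 0.32 (SE 0.09). Of 8 genes of the IKK kinases and the IkB ubiquitin ligase, Skp1, a subunit of the ligase, fell by 0.32 (SE 0.09) and no other passed. Of 7 genes of coactivators and the linear ubiquitin ligase, Rbck1, also called HOIL-1, fell by 0.27 (SE 0.09).

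Of 16 other inhibitor genes, 3 rose and 2 fell over both times (median log2 0.00), again not far from the 22.2% of all genes. Otulin, which cleaves linear ubiquitin chains, rose by log2 0.54 (SE 0.11), Zc3h12a, an RNase that destroys inflammatory mRNAs, by 0.46 (SE 0.14) and N4bp1 by 0.28 (SE 0.08). Commd1 and Pdlim2, both known to promote breakdown of p65, fell by 0.33 (SE 0.08) and 0.50 (SE 0.13). In wake hearts Tnip2, a partner of A20, rose by 0.48 (SE 0.15, adjusted p = 0.0439 by limma), while Pdlim2 fell by 0.91 (SE 0.18).

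Known target genes held most of the called genes of these lists. Of 32 tested, 22 rose and 1 fell over both times, with a median of log2 1.05 against -0.06 for all genes (8.57% of all genes rose). Of these 32, 5 had a mean sham signal below the level filter and so reached the test through their MI hearts, and 4 of the 5 rose. Of the other 27, 18 rose and 1 fell. In wake hearts 20 rose (median 1.06, with 7.81% of all genes) and in sleep hearts 10 rose (median 0.73, with 1.69%). Il6, an inflammatory cytokine, had signals of 267 ± 35.6 in wake MI and 2.23 ± 1.70 in wake sham hearts, while sleep MI hearts had 381 ± 183 and sleep sham hearts 57.3 ± 48.7 (SD, n = 3 each). Cxcl2, a chemokine that draws neutrophils, rose by log2 2.16 (SE 0.21), and Birc3, an inhibitor of cell death, by 1.18 (SE 0.11, adjusted p = 1.73e-05 by limma). Ier3, an early response gene, rose by 1.29 (SE 0.21) in sleep hearts. F3, which starts blood clotting, fell by 0.31 (SE 0.10) over both times. Lcn2 and Mmp9 of this list are also in the neutrophil list.

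In wake sham against sleep sham hearts 3 of the 32 targets were lower and 0 higher (1.1% of all genes were lower). At an unadjusted p below 0.05 by limma there were 17 of the 32 (13.4% of all genes). The median of the 32 was log2 -0.61, against 0.02 for all genes. Bcl2l1, which protects cells from death, read log2 -1.17 (SE 0.20, adjusted p = 0.0127 by limma). Its signals were 117 ± 35.7 for wake sham hearts and 281 ± 68.4 for sleep sham hearts (SD, n = 3 each). Cebpb and Cebpd, transcription factors of the acute phase response, read -1.14 (SE 0.20, adjusted p = 0.0127) and -1.51 (SE 0.29, adjusted p = 0.0211). In this comparison, called genes of the whole array fell from 123 to 38 with the beta-actin ratio in the model. The part of that ratio in the changes of the targets was not tested.

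**Figure D4:**
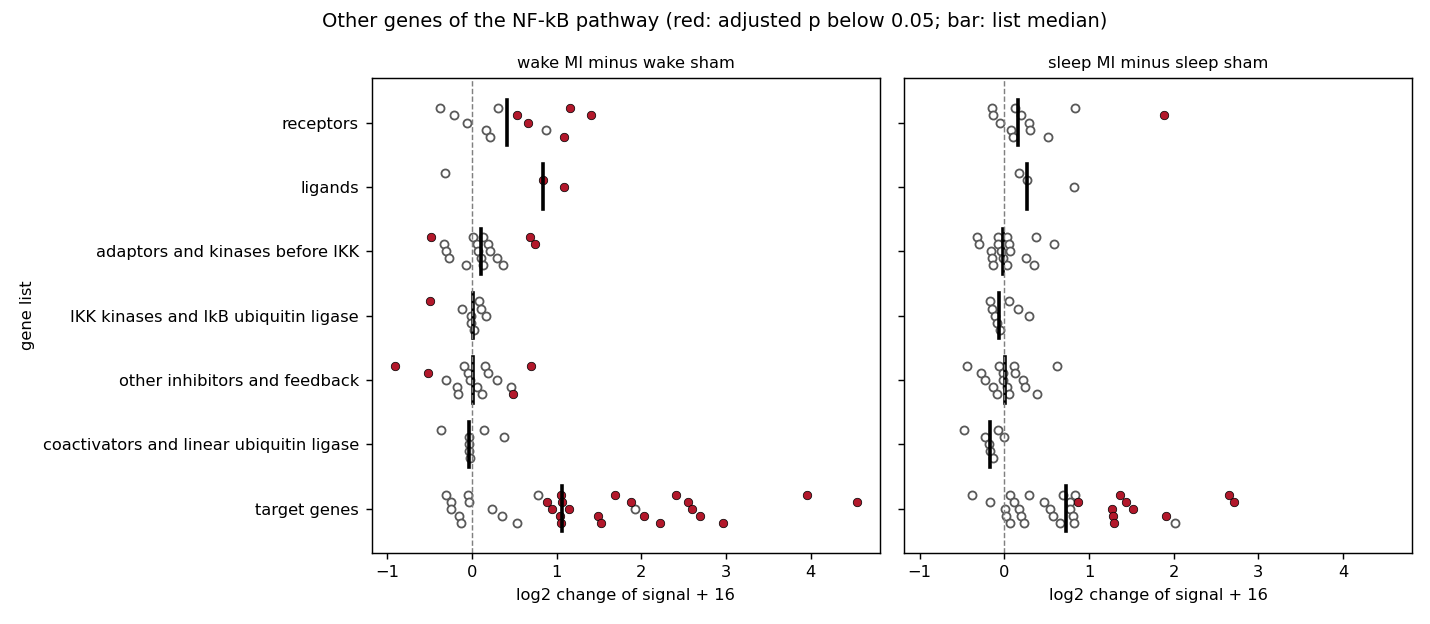
Change of each tested gene of 7 NF-kB pathway lists on the log2(signal + 16) scale (horizontal axis) in wake MI minus wake sham and sleep MI minus sleep sham hearts. Points are genes, red where adjusted p was below 0.05, and bars are list medians. Target genes have medians of 1.06 in wake and 0.73 in sleep hearts, while adaptors, IKK genes, other inhibitors and coactivators gather near 0.

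The genes whose profile over the 12 arrays was most like that of each member were found by Pearson correlation of log2 values among 8108 other genes. These correlations describe arrays that share their groups and their quality differences. For Nfkbia they were S1pr1 (r = 0.964), Rhob (0.964) and Cebpd (0.961). Around the group means, where the differences between groups are removed, Nfkbia had r = 0.961 with S1pr1, a receptor of sphingosine 1-phosphate in endothelium. Each such r shares its deviations with the r used to pick the genes, so it is not a separate check. For Nfkbiz they were Ywhaz (0.969), Dusp1 (0.969) and Socs3 (0.967), with Socs3, a feedback inhibitor of cytokine signalling, at 0.970 around the group means. For Bcl3 they were the phosphatase gene Dusp1 (0.959), Junb (0.955) and Carhsp1 (0.954). For Rel they were Klf7 (0.950), Pde12 (0.948) and Akap12 (0.945). Among the tested members themselves, r around the group means was highest between Rela and Nfkbia (0.796) and between Nfkbiz and Bcl3 (0.754).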

How the data were processed

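The authors deposited 1 linear intensity for each probe set and array, and the submitters' processing notes name MAS5. Its settings and detection calls, and slides or scan dates, are not given in the sources, and no batch was tested. With 2% of values trimmed from each end, every array had a mean of 150.0, and arrays were not rescaled. Of 22690 probe sets, 64 were controls. GEO's platform annotation gave 1 symbol for 20380, several for 691 and none for 1555 of the others, and 12369 of 12393 gene identifiers matched a mouse gene table of assembly GRCm38.p6. Each gene was taken from its probe set of highest mean, and 8109 genes at or above the 40th percentile of mean signal were tested.

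Values were compared as log2(signal + 16) with limma 3.58.1 in R 4.3.3, as a single model of the 4 group means on 12 arrays, with a trend of variance on intensity and two-sided tests, which left 8 residual and 13.9 total degrees of freedom, and Benjamini-Hochberg adjustment over the 8109 genes in each of 6 comparisons. Calls were made at an adjusted p below 0.05. The smallest two-sided p of an exact permutation test on 3 and 3 arrays is 0.1, and none was run. The number of arrays limits the precision. On arrays simulated for wake MI against wake sham with 8109 genes, limma called 85% of the 100 genes given a log2 change of 1 and 99% of the 100 given a change of 2, and 0 calls had the wrong sign. Of its 194 calls 10 were of unchanged genes (5.15%). The simulated noise was independent between genes, without the differences in RNA quality between the real arrays. These shares may therefore not hold for the real comparison.

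The members, gene lists, tests and alternatives were chosen with earlier results of these data known. All members are named. Of each pathway list the text may name up to 3 genes per direction and comparison with the smallest adjusted p among those called, and of each marker list the defining genes and up to 2 more. The genes most alike in profile are given for the 4 members of smallest adjusted p. Deviations from the group means of arrays with the same replicate number correlated between -0.17 and 0.25, and 5 of 18 pairs exceeded 0.1. For arrays with different numbers the range was -0.20 to 0.28, and 9 of 36 pairs exceeded 0.1, so no pairing by number was seen. The alternatives tried were quantile normalization, median centring, a level filter at the 60th percentile or absent, added constants of 64 or 1, the beta-actin ratio in the model, a replicate block, only the compared groups, probe sets taken singly or averaged by gene, other variance settings, and leaving out each array. Motifs and figures were made in Python 3.11.15 (pandas 2.3.3, numpy 2.4.6, matplotlib 3.10.9).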

Additional observations from a re-analysis of the deposited data

How the results depend on the processing

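Of the 12 calls made for members, 12 held under quantile normalization and 12 under median centring, 10 held with the replicate number as a block and 2 with the beta-actin ratio. With the replicate block Relb over both times (log2 0.38, adjusted p = 0.0560) and Rela in wake hearts (0.41, 0.0538) lost their calls, and the block changed no other member call. Arrays with the same number correlated over a range similar to that of arrays with different numbers. When the model held the beta-actin ratio, the count of called members was 1 over both times and 0 in wake hearts, against 6 and 5. In sleep hearts the count of 1 became 0 with the 60th percentile filter, which left 4 members without Rel, and 0 with the sleep groups alone. With each array left out in turn, the count ran 5 to 6 over both times, 4 to 5 in wake hearts, 0 to 2 in sleep hearts, 0 to 2 in wake sham against sleep sham hearts, and was 0 throughout in wake MI against sleep MI hearts and for the difference of effects.

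Signs turned for changes that were not called and near 0, and the cause was not tested. With the beta-actin ratio they were -0.17 for Nfkb2 in wake hearts, and -0.0047 for Nfkbiz and -0.060 for Bcl3 in wake MI against sleep MI hearts. With the mean of its probe sets, Nfkb2 read -0.092 in wake sham against sleep sham hearts. With arrays left out, wake MI against sleep MI hearts ran -0.16 to 0.13 for Relb, -0.34 to 0.0027 for Nfkbia, -0.30 to 0.46 for Nfkbiz and -0.16 to 0.19 for Bcl3. Wake sham against sleep sham hearts ran -0.057 to 0.18 for Rel and -0.056 to 0.13 for Nfkb2, and the difference of effects -0.080 to 0.21 for Relb and -0.045 to 0.19 for Rela.

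With arrays left out, called genes of the whole array numbered 1325 to 1813 over both times, 838 to 1520 in wake hearts, 57 to 290 in sleep hearts, 0 to 7 in wake MI against sleep MI hearts, 30 to 229 in wake sham against sleep sham hearts and 0 to 37 for the difference of effects. Signals under the level filter, as for Nfkbie and Tnfaip3, limit what can be measured.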
